A study of Mus musculus with 8 samples.

Results

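Adipokines are proteins that fat cells secrete into the blood or the surrounding tissue, and 8 genes were followed here, Adipoq, Lep, Retn, Cfd, Rbp4, Rarres2, Nampt and Lcn2. They were taken by symbol, with earlier results of these data known, from the 43629 genes of the count file, of which 42548 matched a mouse symbol. Messenger RNA had been sequenced from 3T3-L1 adipocytes, fat cells grown from a clonal mouse fibroblast line, in 8 libraries. All groups shared the inducers of differentiation, namely insulin (1 µM in the labels and 1 µg/ml in the methods of the study), dexamethasone at 1 µM, isobutylmethylxanthine at 0.5 mM and rosiglitazone at 1 µM, the last an activator of the adipocyte regulator PPARγ. In the methods of the study these inducers, insulin last, were withdrawn from the medium before day 8. On day 8 the cells received no agent, A66, palmitate, or palmitate together with A66, for 24 h, with 2 cultures in each group. A66 inhibits the p110α isoform of PI3K, the enzyme through which the insulin receptor signals to Akt, and palmitate is a saturated fatty acid, given at 0.5 mM on albumin. The A66 dose is 2 µM in the sample labels and 1 µM, against a DMSO vehicle, in the methods of the study. The label of the control cells is untreated, so A66 and its vehicle, and palmitate and its albumin, cannot be told apart. No transcript was used here to check the activity of p110α, so directions rest on the sample labels. Being whole cultures, the samples do not separate fewer cells of a type from less RNA per cell.

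Some adipokine genes, Adipoq among them, are switched on late in fat cell differentiation by PPARγ and C/EBP proteins, and several respond to insulin. Adiponectin, the product of Adipoq, sensitises liver and muscle to insulin, whereas leptin, from Lep, reports the size of the fat stores to the brain. Resistin, from Retn, opposes insulin action in mice, and Cfd encodes adipsin, the protease that starts the amplification loop of the alternative complement pathway. Of the remaining genes, Rarres2 encodes chemerin, an attractant of immune cells, Nampt the rate-limiting enzyme of NAD salvage, Lcn2 the iron siderophore binding protein lipocalin 2, and Rbp4 the plasma carrier of retinol.

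The upstream sequences of Retn, Adipoq and Cfd are shown because these genes fell in at least 1 comparison, a choice made after their values were seen. Each window covers the 250 bases before the RefSeq start site on GRCm38.p6, plus strand, and capitals mark matches to any of 10 motifs searched on both strands in 300 bases around the start. Retn lies on chromosome 8 (chr8:3655770-3660110), Adipoq on chromosome 16 (chr16:23146536-23158028) and Cfd on chromosome 10 (chr10:79890853-79892655). The windows are chr8:3655520-3655769, chr16:23146286-23146535 and chr10:79890603-79890852.
Retn: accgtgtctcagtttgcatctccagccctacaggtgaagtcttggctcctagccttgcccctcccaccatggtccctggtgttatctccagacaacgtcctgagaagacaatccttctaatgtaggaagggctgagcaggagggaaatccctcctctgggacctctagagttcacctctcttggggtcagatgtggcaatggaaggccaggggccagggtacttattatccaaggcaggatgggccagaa
Adipoq: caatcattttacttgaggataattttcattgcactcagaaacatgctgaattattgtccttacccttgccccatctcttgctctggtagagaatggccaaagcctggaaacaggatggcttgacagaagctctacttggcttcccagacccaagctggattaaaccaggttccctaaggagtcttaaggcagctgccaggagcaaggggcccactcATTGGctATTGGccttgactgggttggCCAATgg
Cfd: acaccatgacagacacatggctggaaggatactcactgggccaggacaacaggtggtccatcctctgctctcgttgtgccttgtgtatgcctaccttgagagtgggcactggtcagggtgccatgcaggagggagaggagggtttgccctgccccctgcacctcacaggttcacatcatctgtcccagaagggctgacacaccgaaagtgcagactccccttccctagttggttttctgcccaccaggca

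The Adipoq window held the CCAAT letters 3 times, at positions -34 and -27 on the minus strand and at -7 on the plus strand relative to the start. This motif was present in 37.4% of 32851 promoters of the same length, so it is common. The windows of Retn and Cfd held none of the motifs searched. The other letters searched, with the share of promoters that held them, were TTNNGCAA (C/EBP type, 10.8%), TATAAA (13.6%), an NF-kB type motif (1.63%) and the NF-kB consensus that it contains (0.155%), a PPAR/RXR direct repeat (0.381%), GTAAACA (FOXO type, 3.65%), CACGTG (7.15%), TCACNCCAC (SREBP type, 1.24%) and GGGCGG (35.7%). Of the 7 adipokine genes with a promoter entry, Lep carried the C/EBP type letters at -55, where TTGCGCAA reads alike on both strands, and Lcn2 and Rbp4 also carried a match. These matches describe the letters only.

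Library totals ran from 42247091 counts (untreated replicate 1) to 57529803 (palmitate replicate 1), so that 3 counts correspond to 0.0521 to 0.0710 CPM, which are counts scaled to the library total. The chi-square between replicates averaged 6.15 to 8.99 over genes, so no pair of libraries differed by counting error alone. The cells carried adipocyte markers at a summed level of 14817 to 17242 CPM for 8 genes. Pre-adipocyte and fibroblast markers (9 genes) summed to 4123 to 4674 CPM, and 7 macrophage markers to 5.82 to 8.79 CPM, with Adgre1, Ptprc and Mrc1 under 3 counts in every library. Endothelial markers (4 genes) summed to 0.847 to 1.28 CPM, with Cdh5 and Kdr under 3 counts throughout.

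The adipokine genes spanned a wide range of levels, in an order that was the same in all 4 groups. Counted per kilobase of merged exons so that genes can be compared, Adipoq stood at 1668 ± 45.0 CPM per kb in untreated cells (SD, n = 2) and ranked 13 of the 22813 genes with counts. Cfd followed at 1181 ± 63.1 CPM per kb and ranked 16. Retn reached 214 ± 13.1, Rarres2 90.8 ± 1.93 and Nampt 85.5 ± 0.807 CPM per kb. Lep, at 3.97 ± 0.723 CPM per kb, and Lcn2, at 0.844 ± 0.203, were far lower. With merged exon lengths the ranges of neighbours in this order did not overlap in any group, although Rarres2 exceeded Nampt by only 1.06 to 1.22 times. With the length of the longest transcript the untreated ranges of these 2 genes overlapped, at 94.6 to 97.5 CPM per kb for Rarres2 and 94.8 to 96.1 for Nampt. Rarres2 shares 892 exon bases with Lrrc61 on the opposite strand, which had 9144 counts in all against 102993 for Rarres2. Whether counting used strand is not given in the sources used here, so the place of Rarres2 just above Nampt is uncertain. All 7 genes together took 0.392% to 0.484% of the counts, Adipoq alone 0.204% to 0.255%.

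**Figure D1:**
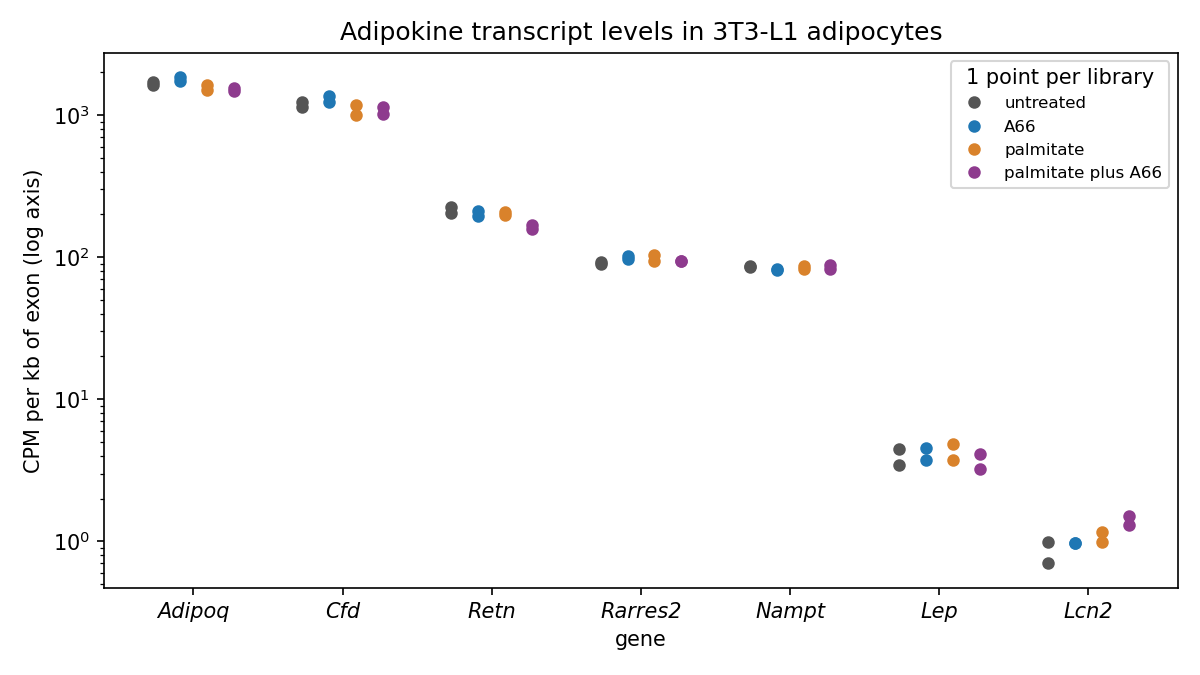
Level of 7 adipokine genes in CPM per kilobase of merged exons, on a log axis, in each of the 8 libraries by group. The order from Adipoq (1668 in untreated cells) down to Lcn2 (0.844) was the same in every group.

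Rbp4 (chr19:38116629-38125281) was listed at 0 in all 8 libraries and entered no test. A count of 0 allows up to 3 counts, or 0.0521 to 0.0710 CPM, for counting error only. Of 77 genes of mitochondrial ribosomal proteins, whose median total was 13267 counts and which every cell uses, Mrpl53 and Mrps23 were also listed at 0 throughout (a check chosen after the values were seen). The 0 of Rbp4 is therefore given as listed and not as absence of the transcript.

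Retn showed the clearest difference between groups, and it lay in the cells that received both agents. Its level was 324 and 353 CPM in the untreated libraries, 331 and 309 CPM under A66, 315 and 327 CPM under palmitate, and 265 and 249 CPM under both agents. Both libraries of the combined treatment lay below all 6 others, and the other 3 groups overlapped. The same 2 libraries had the highest share of mitochondrial counts, 11.4% and 11.8% against 10.49% to 10.98% in the other 6, and the part of this in the Retn value was not tested. Against untreated cells Retn fell by 24.1% in the combined treatment, a log2 fold change of -0.40 (SE 0.05, 95% interval -0.50 to -0.30). The adjusted p was 8.84e-06 (edgeR quasi-likelihood test, adjusted by Benjamini-Hochberg over all genes tested). Against palmitate alone Retn fell by 20.1% (log2 fold change -0.32, interval -0.42 to -0.22, edgeR adjusted p = 5.11e-04). Against A66 alone it fell by 19.8% (-0.32, interval -0.42 to -0.22, edgeR adjusted p = 2.95e-04). These 3 comparisons share the libraries of the combined treatment. Of 8 adipocyte markers, 5 fell with both agents against untreated cells (median log2 fold change -0.19), 5 against A66 (-0.19) and 2 against palmitate (-0.06). Of all genes tested 3.71%, 1.27% and 1.84% fell in these comparisons, and the part of the markers in the Retn value was not tested. In each of the 3 comparisons Retn passed the test under all 17 alternatives run, leaving out any library included.

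Neither agent alone moved Retn past the test. The log2 fold change was -0.08 with A66 (interval -0.17 to 0.02, edgeR adjusted p = 0.509) and -0.08 with palmitate (interval -0.17 to 0.02, edgeR adjusted p = 0.575). Without untreated replicate 1 the A66 difference was -0.14 and passed, with an edgeR adjusted p of 0.0333. The difference between the effect of A66 with palmitate and without it, the interaction, was -0.24 on the log2 scale (interval -0.38 to -0.10), with an edgeR adjusted p of 0.340 after the filter on low counts and 0.0115 without that filter.

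Adipoq and Cfd had their highest levels with A66 alone, and both were lower with palmitate plus A66 than with A66. Adipoq measured 2259 and 2347 CPM in untreated libraries, 2546 and 2412 under A66, 2068 and 2245 under palmitate, and 2049 and 2137 under both agents. Both A66 libraries lay above all others, and the palmitate and combined groups overlapped. The share of all genes with a group set apart like this was not counted. Relative to A66, Adipoq fell by 15.6% in the combined treatment (log2 fold change -0.24, interval -0.34 to -0.15, edgeR adjusted p = 0.00327). Cfd measured 1048 and 1130 CPM in untreated libraries, 1258 and 1141 under A66, 923 and 1083 under palmitate, and 936 and 1051 under both agents. The A66 libraries again lay above the rest, while the other 3 groups overlapped one another. Relative to A66, Cfd fell by 17.2% in the combined treatment (log2 fold change -0.27, interval -0.40 to -0.14, edgeR adjusted p = 0.0181).

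Both of these differences rested in part on single libraries. Without A66 replicate 1 the edgeR adjusted p was 0.159 for Adipoq (log2 fold change -0.21) and 0.379 for Cfd (-0.20). Without replicate 1 of the combined treatment it was 0.0900 (-0.21) and 0.327 (-0.19). With DESeq2, Cfd did not pass, whereas Adipoq did. Adipocyte markers moved in the same comparison, since 5 of 8 passed the test, all lower with both agents than with A66. Of all genes tested 1.27% were lower. The median log2 fold change of the markers was -0.19 against 0.00044 over all genes. Their summed level was 16711 to 17202 CPM with A66 and 14817 to 15867 CPM with both agents. Lpl alone had means of 9359 and 8339 CPM in these groups. The part of the markers in the adipokine values was not tested.

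**Figure D2:**
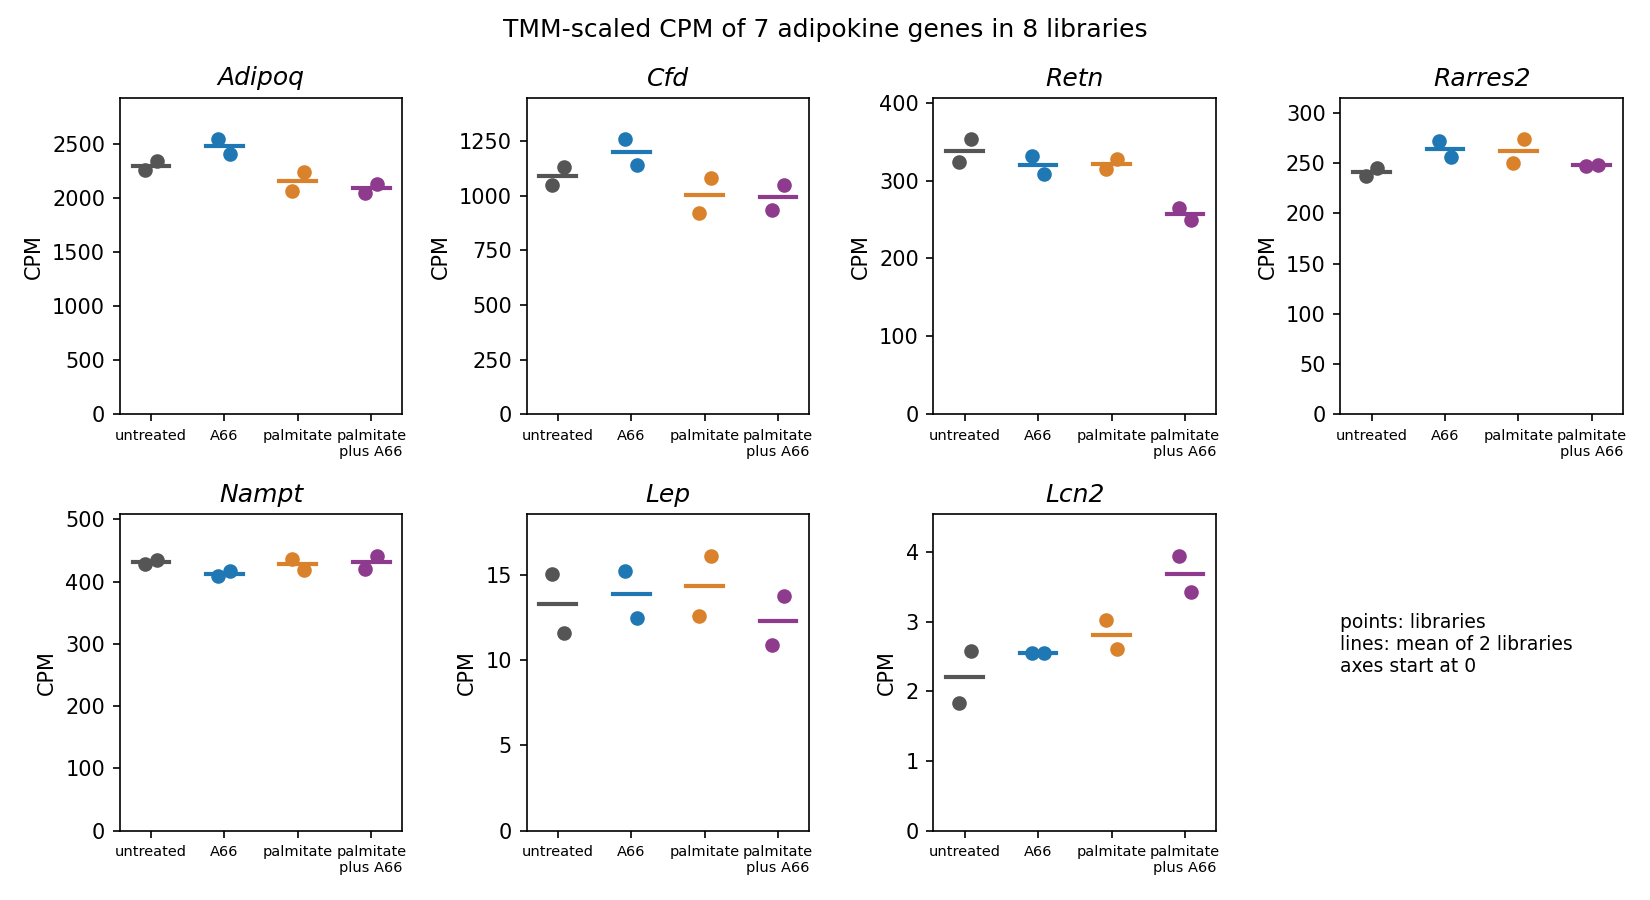
Level of each adipokine gene in CPM, scaled by TMM, in the 8 libraries. Points are libraries, lines are the mean of 2 libraries, and axes start at 0. Retn lies lowest with palmitate plus A66 (249 and 265 CPM), and Adipoq and Cfd lie highest with A66 alone.

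Lcn2, a gene of the acute phase response, was the least abundant adipokine with counts, and its level was highest with both agents. The libraries gave 1.84 and 2.59 CPM for untreated cells, 2.55 and 2.56 under A66, 3.02 and 2.61 under palmitate, and 3.96 and 3.43 under both agents. Both libraries of the combined treatment, which also had the highest mitochondrial shares, lay above the other 6. Against untreated cells Lcn2 was 1.65-fold higher (log2 fold change 0.72, interval 0.34 to 1.11, edgeR adjusted p = 0.0174). This call was lost without untreated replicate 1 (0.51, edgeR adjusted p = 0.203) and without replicate 1 of the combined treatment (0.62, edgeR adjusted p = 0.156). Each value rested on 78 to 192 counts. Against palmitate alone the log2 difference was 0.39 (edgeR adjusted p = 0.315) and against A66 alone 0.53 (edgeR adjusted p = 0.136). Of the 7 macrophage markers 3 could be tested in the comparison with untreated cells and 1 passed, being higher, where 3.79% of all genes did. This was Cd68, at 0.88 on the log2 scale (edgeR adjusted p = 0.00103). The other 2 were Csf1r at -0.08 and Lyz2 at -0.26, the list's median was -0.08, and the defining markers Adgre1, Ptprc and Mrc1 had under 3 counts in every library. The list summed to 5.82 to 6.69 CPM in untreated cells and 7.79 to 8.79 CPM with both agents, and its part in the Lcn2 value was not tested.

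Rarres2, Nampt and Lep passed the test in none of the 6 comparisons with all libraries and the filter on low counts. Rarres2 was lowest in untreated cells, at 238 and 245 CPM, against 272 and 256 with A66, 250 and 274 with palmitate, and 248 in both libraries of the combined treatment. The untreated libraries lay below all others, but the log2 difference was 0.13 with A66 (interval 0.05 to 0.22, edgeR adjusted p = 0.128) and 0.12 with palmitate (interval 0.02 to 0.21, edgeR adjusted p = 0.258). Nampt was the steadiest of the genes, with a highest library only 1.08 times its lowest. Its 2 A66 libraries, at 409 and 417 CPM, lay below the other 6, which ranged from 419 to 442 CPM. The log2 difference of Nampt was -0.06 with A66 (interval -0.14 to 0.02) and -0.01 with palmitate (interval -0.10 to 0.07). Lep ranged from 10.9 to 16.1 CPM and all 4 groups overlapped. Its intervals were wide, at -0.16 to 0.30 for A66 and -0.16 to 0.39 for palmitate, so a change of any size within them remains possible. They are not limits of detection.

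No adipokine passed the test with a single agent. With A66 against untreated, 0 of the 7 genes tested passed edgeR's test, where 1.84% of 14158 genes did (1.07% higher and 0.77% lower). At an unadjusted p under 0.05 there were 3 of 7 (Adipoq, Cfd and Rarres2, all higher), where 12.8% of all genes reached that level. DESeq2 called 0, with 2 at that level, where 7.56% of all genes reached it. Without untreated replicate 2 these 3 genes passed, at log2 differences of 0.14, 0.20 and 0.16, and they also passed without the filter on low counts. With palmitate against untreated, 0 of 7 passed in edgeR against 1.17% of 14587 genes (0.631% higher and 0.542% lower), with 1 at an unadjusted p under 0.05 (Rarres2), where 12.02% of all genes reached that level. DESeq2 called 0, with 2 at that level, against 9.04% of all genes.

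With the agents combined the counts were larger. Against palmitate alone 1 of 7 passed (Retn, lower), where 2.81% of all genes did (0.973% higher and 1.84% lower). Against A66 alone 3 passed (Adipoq, Retn and Cfd, all lower), where 2.73% did (1.46% higher and 1.27% lower), and DESeq2 called 2. Against untreated cells 2 passed (Retn lower and Lcn2 higher), where 7.5% did (3.79% higher and 3.71% lower), and DESeq2 called 3, Adipoq being added. In that comparison Adipoq had a log2 difference of -0.14 (interval -0.24 to -0.04, edgeR adjusted p = 0.0758). No adipokine passed the interaction test in edgeR or DESeq2, where 1 gene of 14587 (0.00686%) passed in edgeR. At an unadjusted p under 0.05 there were 3 of 7 in each tool, where 7.92% of all genes reached that level in edgeR and 5.30% in DESeq2. With 2 libraries against 2, values that do not overlap are common, and 42.7% of all genes tested with A66 and 49.7% with both agents against untreated cells did not overlap. The share of genes in which a group lay beyond all other libraries was not counted, so statements of that kind describe the libraries only.

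**Figure D3:**
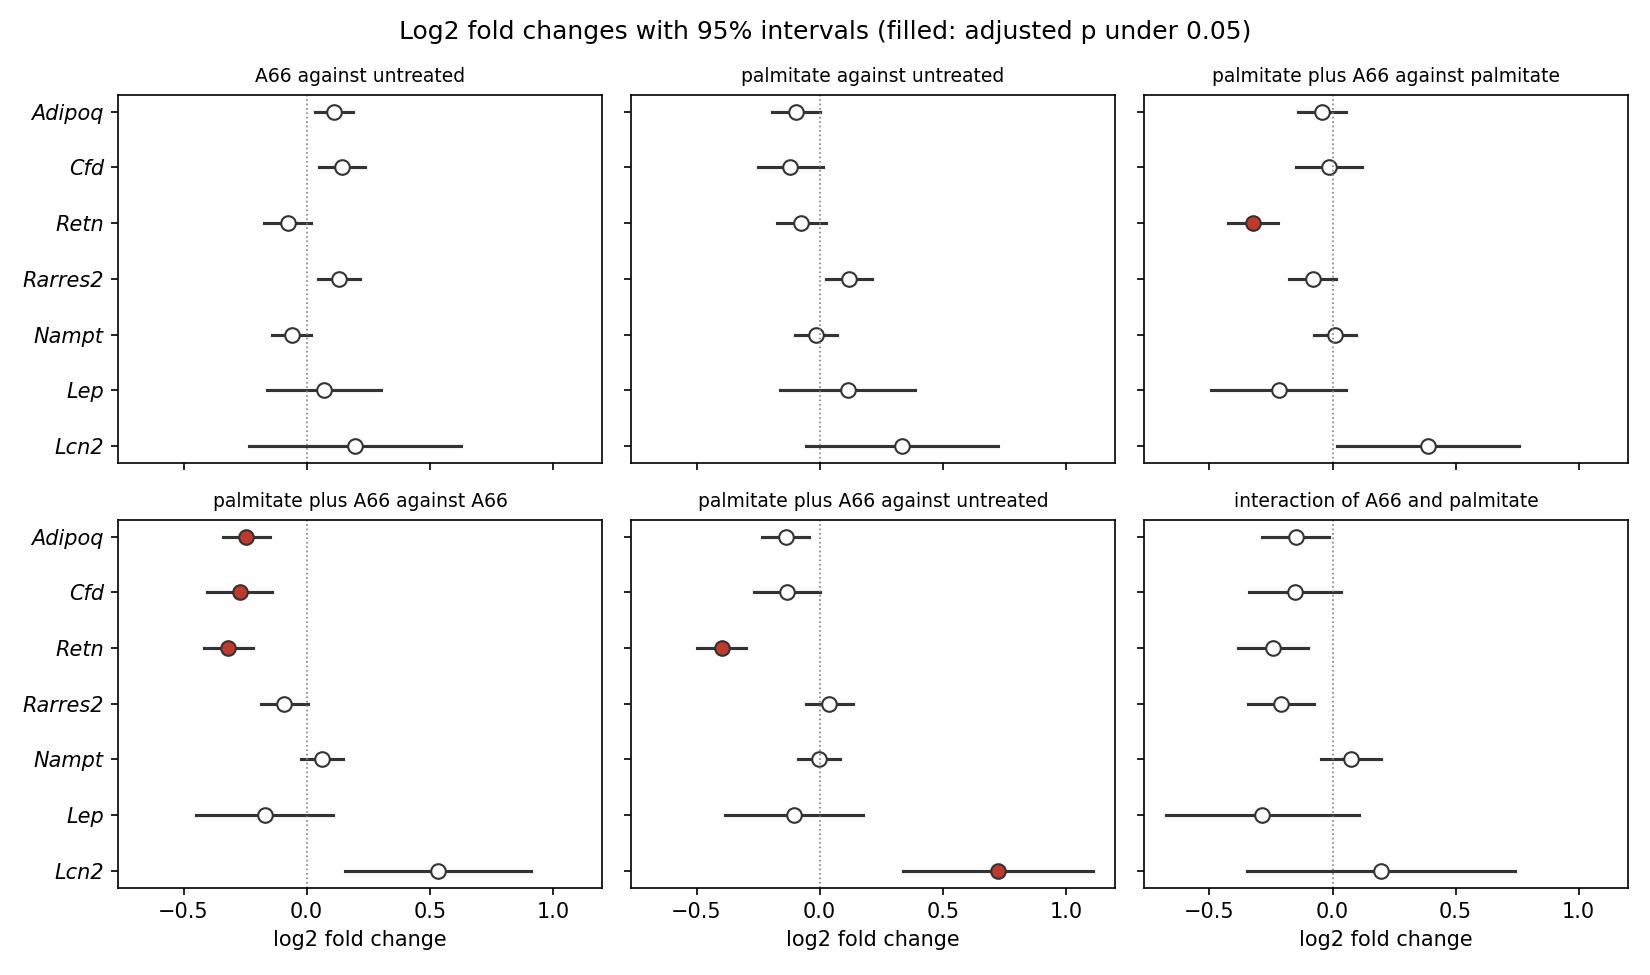
Log2 fold change of 7 adipokine genes with 95% intervals in 6 comparisons, the last being the interaction. Filled points passed edgeR's test at an adjusted p under 0.05, which Retn did in 3 comparisons and Adipoq, Cfd and Lcn2 in 1 each.

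The receptors and partners of the adipokines were followed by lists, of which up to 3 genes each are named, and their counts are set beside the shares of all genes that passed, 1.84% with A66 and 1.17% with palmitate. Among 13 receptor genes, 7 were tested with A66 and Tlr4, the lipopolysaccharide receptor, rose from 81.6 and 81.4 CPM to 91.2 and 94.2 CPM. The A66 libraries lay above both untreated ones, with a log2 fold change of 0.19 (SE 0.04, edgeR adjusted p = 0.0229), which was lost without either A66 library (adjusted p up to 0.307). With palmitate 0 of 8 receptors tested passed in edgeR. Of 14 genes listed for the assembly and secretion of adiponectin, Ero1a fell with A66. This oxidase, which forms disulfide bonds in the endoplasmic reticulum, went from 826 ± 8.27 to 686 ± 36.7 CPM (SD, n = 2, log2 fold change -0.27, edgeR adjusted p = 5.56e-04). None of the 14 passed with palmitate in edgeR. Of 12 genes of the C1q/TNF family to which adiponectin belongs, 4 were tested and 0 passed with either agent, and none of the 3 resistin-like genes had counts enough to be tested.

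Among other secreted proteins of fat cells, the clearest was Hp. This gene, which encodes haptoglobin, a binder of free haemoglobin, measured 145 and 168 CPM in untreated libraries, 107 and 110 under A66, 96.1 and 117 under palmitate, and 96.6 and 86.3 under both. All 6 treated libraries lay below the untreated ones. Its log2 fold change was -0.53 with A66 (edgeR adjusted p = 3.10e-06) and -0.56 with palmitate (edgeR adjusted p = 5.08e-05), and it passed under every alternative run in both comparisons. Of the 28 genes of this list tested, 2 fell and 0 rose with A66, where 0.77% of all genes fell and 1.07% rose. The other was Agt, angiotensinogen (-0.19), whose call was lost without either A66 library. With palmitate 4 genes of the list fell and 1 rose, where 0.542% of all genes fell and 0.631% rose. Among them were Vegfa, the endothelial growth factor (-0.19), and Igf1, the growth factor that rose (0.19), each lost under 3 of 17 alternatives. Lpl, which also fell, is an adipocyte marker as well. All 8 adipocyte markers had values below 0 with palmitate (median log2 fold change -0.09, highest -0.005). The part of this in the values of the list was not tested.

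C3, the central complement protein, was lower under each agent alone and under both. It measured 1667 and 1619 CPM in untreated libraries, 1442 and 1361 under A66, 1348 and 1398 under palmitate, and 1210 and 1264 under both agents. Every treated library lay below the untreated ones, and the lowest were those with both agents. C3 fell by 0.23 on the log2 scale with A66 (edgeR adjusted p = 0.00167), a call lost without A66 replicate 2 (adjusted p = 0.0956). With palmitate it fell by 0.26 (edgeR adjusted p = 0.00186), and this call held in every alternative run. It was the only one of 9 tested genes of the alternative pathway to pass in either comparison, where 0.77% of all genes fell with A66 and 0.542% with palmitate.

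Of all genes tested, 1.84% passed with A66 and 1.17% with palmitate, and the counts of the NAD and retinoid lists stand beside these shares. Of 13 NAD genes tested, 0 passed with A66 in edgeR, and with palmitate Aox1, an aldehyde oxidase, fell by 0.33 on the log2 scale (edgeR adjusted p = 1.75e-04). Of 12 retinoid genes, 0 passed with A66 and 3 with palmitate. Aldh1a7, an aldehyde dehydrogenase with a close paralog in Aldh1a1 that makes its counts less certain, rose by 0.53 (edgeR adjusted p = 5.04e-06). Rdh11, a retinal reductase, rose by 0.31, and Retsat, retinol saturase, fell by 0.17, calls lost under 2 and 8 of 17 alternatives.

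Acute phase genes and regulators moved in small numbers. Of 26 acute phase and NF-kB genes tested, 2 fell and 1 rose with A66, where 0.77% of all genes fell and 1.07% rose. Beside Hp, the protease inhibitor Serpina3n fell by 0.57 (edgeR adjusted p = 0.00285), and the adhesion molecule Vcam1 rose by 0.20 (edgeR adjusted p = 0.0110). The Serpina3n call was lost without A66 replicate 1 (adjusted p = 0.0704) and the Vcam1 call without A66 replicate 2 (adjusted p = 0.238). Serpina3n has close paralogs that make its counts less certain. With palmitate 2 fell and 0 rose, where 0.542% of all genes fell and 0.631% rose. These were Hp and Nfkbiz, of which Nfkbiz encodes a cofactor of NF-kB in the induction of Lcn2. Nfkbiz fell by 0.29 (edgeR adjusted p = 0.0288), a call lost under 4 of 17 alternatives. Of 22 regulators of adipokine genes, 2 rose with A66, beside 1.07% of all genes, the glucocorticoid receptor Nr3c1 (0.16) and the clock repressor Bhlhe40 (0.19, edgeR adjusted p = 0.0456). The Nr3c1 call was lost under 3 of 13 alternatives, with library size scaling (edgeR adjusted p = 0.0557) and without either A66 library (up to 0.327), and the Bhlhe40 call under 5 of 13. Bhlhe40 was also the gene that rose with palmitate (0.27, edgeR adjusted p = 0.00209), a call lost without untreated replicate 1 (adjusted p = 0.0646). Pparg (0.03) and Cebpa (0.06), the chief activators of Adipoq, did not pass with A66, with edgeR adjusted p of 0.791 and 0.737. The next lists are again set beside the shares of all genes that passed, 1.84% with A66 and 1.17% with palmitate. Of 8 genes of siderophore and iron handling, the iron exporter Slc40a1 rose with palmitate (0.30, edgeR adjusted p = 0.0140), a call lost under 5 of 17 alternatives, and 0 passed with A66 in edgeR. Of 8 pre-adipocyte and fibroblast markers tested, 1 passed with A66 and 1 with palmitate, with list medians of 0.01 and 0.03. With A66 this was Acta2 (0.23), whose call was lost with DESeq2 (adjusted p = 0.523), in the fit of all 8 libraries (edgeR adjusted p = 0.251) and without A66 replicate 2 (0.11, edgeR adjusted p = 0.623), and which stood at 0.36 without A66 replicate 1. Thy1 (-0.20) and Col1a1 (-0.09) of the same list had values below 0 with A66 and did not pass. With palmitate it was Col1a1 (0.25), which passed under all 17 alternatives, while Acta2 was at -0.14 and did not pass. Lpl, an adipocyte marker, fell with palmitate (-0.19), a call lost under 7 of 17 alternatives. It was the only 1 of 8 adipocyte markers to pass with palmitate, and the list median was -0.09. The 8 markers summed to 15401 to 16107 CPM with palmitate and 17081 to 17242 CPM in untreated cells.

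**Figure D4:**
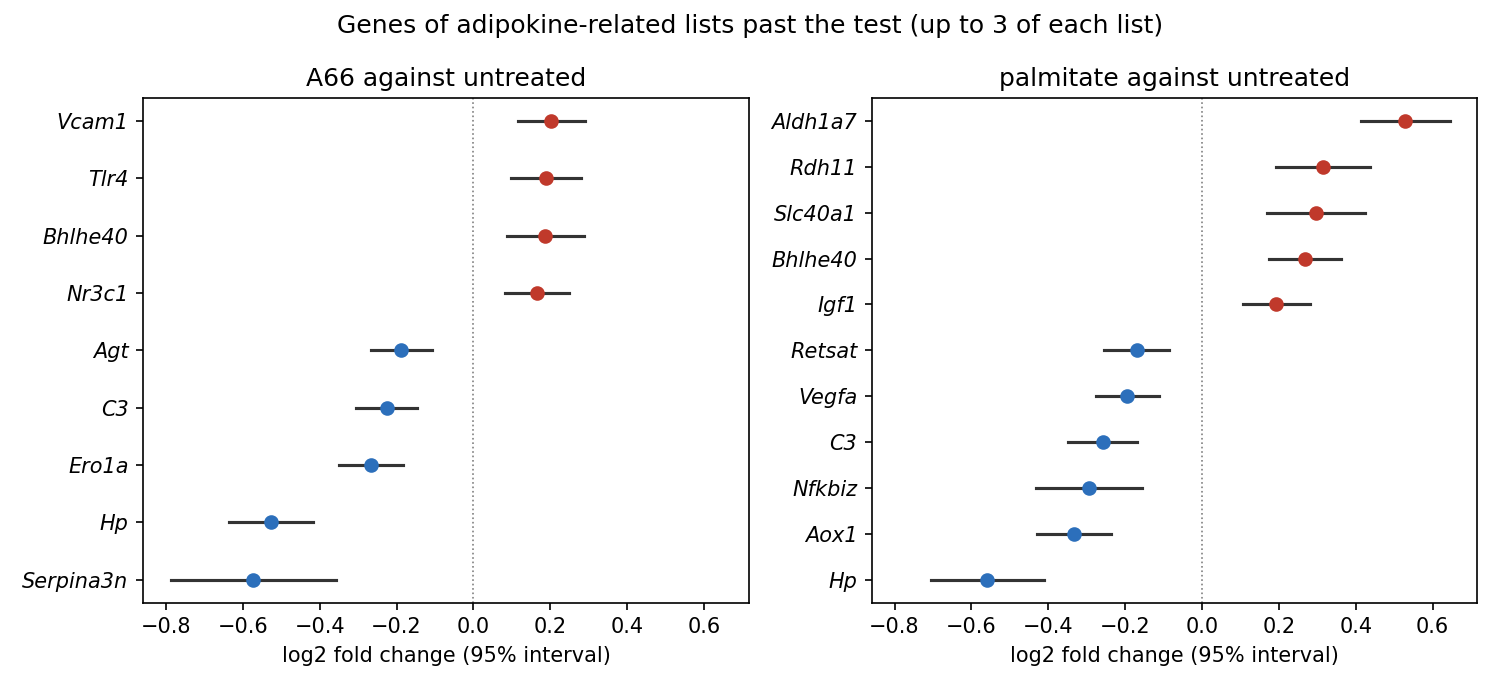
Log2 fold change with 95% intervals of the genes of adipokine-related lists that passed edgeR's test, up to 3 per list, with A66 (left) and with palmitate (right). Hp lies at -0.53 with A66 and -0.56 with palmitate, and Aldh1a7 has the highest value, 0.53, with palmitate.

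The genes whose profile over the 8 libraries was most like that of each adipokine were taken from 8955 genes with a mean of at least 10 CPM, by the root mean square difference of centred log2 CPM. Cfd was nearest to Adipoq itself (0.05) and then to Slc27a1, a fatty acid transporter (0.05), against a median of 0.15 over all genes searched. Retn was nearest to Ptpa (0.04) and Bcat2 (0.05), the latter the mitochondrial branched chain aminotransferase, against a median of 0.17. Adipoq was nearest to Vgll4 and Abtb1 (0.03 each, median 0.12). For Rarres2 the nearest were Map1lc3a and Rps6ka4, for Nampt Eif2s1 and Ncbp1, and for Lep Fam160a1 and Art3. This likeness describes the same 8 libraries for every gene, with their differences in treatment and depth, and carries no test.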

How the data were processed

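Messenger RNA of 3T3-L1 adipocytes was sequenced from poly(A)-selected, stranded libraries. Per the labels and the submitters' processing notes, the authors aligned reads with TopHat2 2.0.11 to GRCm38 and deposited unnormalized read counts for Ensembl genes made with HTSeq, whose version and strand setting are not given in the sources used here. Deposited columns of the authors' own DESeq2 comparison (log2 fold changes, p-values and scores) were not used. Groups were taken from the labels, which give replicate numbers. The methods give 2 biological repeats for cells with A66 or vehicle and do not mention palmitate. No group's counts agreed within sampling noise between replicates.

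IDs were matched to GENCODE M21 on GRCm38, leaving 1081 IDs without a symbol, with 0.0816% of the counts. Counts were filtered with filterByExpr (minimum count 10), scaled by TMM and tested in R 4.3.3 with edgeR 4.0.16 (limma 3.58.1), by two-sided quasi-likelihood tests with Benjamini-Hochberg adjustment over all genes tested and a threshold of 0.05. A66 was compared with untreated in the 4 libraries without palmitate, and the rest in all 8. Standard errors follow from the fold change and the F statistic. The scripts were tested on simulated counts. Alternatives were RLE or library size scaling, DESeq2 1.42.0, no filter or at least 10 counts in every library, the other set of libraries, the replicate block, a loess correction for transcript length (span 0.4), and each library left out. The comparison of the combined treatment with untreated cells was added after the data were seen. The members and gene lists were chosen with earlier results of these data known. Named list genes are the up to 3 with the smallest p in each list among those past the threshold with A66 or palmitate, and nearest profiles are the 2 with the smallest difference. Promoter sequences are from RefSeq (GRCm38.p6), in which 7 of 8 genes had an entry. Floors from counts cover counting error only, as no molecular identifiers are named. Intervals of fold changes come from the edgeR fit, which includes the spread between libraries.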

Additional observations from a re-analysis of the deposited data

Results flagged for a closer look

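Hmox1, which encodes the haem-degrading enzyme heme oxygenase 1 and stands in the iron handling list, was singled out after its values were seen because the effect of A66 differed with palmitate present. It measured 373 and 401 CPM in untreated libraries, 352 and 358 under A66, 394 and 393 under palmitate, and 494 and 489 under both agents. The libraries with both agents lay above the other 6, and had the highest share of mitochondrial counts (11.4% and 11.8% against 10.49% to 10.98%), whose part in this was not tested. The interaction was 0.45 on the log2 scale (edgeR adjusted p = 0.00194) and ranged from 0.39 to 0.50 over 16 alternatives, with an adjusted p of up to 0.0675 without A66 replicate 1.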

How the results depend on the processing

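Of the alternatives run on the adipokines, the replicate block and the scalings changed no adipokine call in the 5 planned comparisons. The replicate numbers were not shown to pair the samples, since same-numbered samples of different groups deviated together with correlations of -0.15 to 0.16 over 8956 genes. With the replicate block 3 genes passed the interaction test instead of 1, with the block and the length correction together 411 genes passed for A66, and counts in the other comparisons stayed within 1.5 times. Without the filter on low counts, 459 genes passed for A66, 396 for palmitate, 652 for both agents against palmitate, 664 against A66 and 91 for the interaction. The adipokines that passed were then 3 for A66, 4 for both agents against untreated and 1 for the interaction. The cause was not tested. With the 4 libraries of its own groups, 689 genes passed for both agents against A66. The interaction gave 2 genes with library size scaling and 21 with DESeq2.

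Leaving out 1 library each time, the number of genes that passed ranged from 98 to 635 for A66 (lowest without A66 replicate 2, highest without untreated replicate 2) and from 71 to 245 for palmitate (lowest without palmitate replicate 1). It ranged from 147 to 494 for both agents against palmitate (lowest without palmitate replicate 2), from 107 to 502 against A66 (lowest without A66 replicate 1), from 437 to 1236 against untreated (lowest without replicate 1 of the combined treatment) and from 0 to 10 for the interaction. Adipokines that passed ranged from 0 to 3 for A66, 1 to 3 for both agents against A66 and 1 to 3 against untreated, and were 0 for palmitate, 1 for both agents against palmitate and 0 for the interaction throughout.

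Differences near 0 changed sign, and none of these had passed the test. Nampt was -0.0093 for both agents against palmitate with library size scaling. Against untreated it was 0.0011 without the filter, 0.00056 with at least 10 counts, 0.00043 with the length correction and 0.00035 with the replicate block and the length correction. Cfd for both agents against palmitate was 0.0014 with the length correction and 0.0021 with the block added. Leaving out 1 library, Lep ranged from -0.11 to 0.26 and Lcn2 from -0.018 to 0.48 for A66, Lep from -0.072 to 0.31 and Nampt from -0.043 to 0.019 for palmitate. For both agents against palmitate, Adipoq ranged from -0.10 to 0.018, Cfd from -0.13 to 0.11 and Nampt from -0.028 to 0.047. Against untreated, Lep ranged from -0.29 to 0.086 and Nampt from -0.043 to 0.037, and Lcn2 in the interaction from -0.087 to 0.41. Adipoq for both agents against untreated passed with library size scaling, DESeq2, no filter, either length correction, or without either palmitate library. The longest transcript in place of merged exons, and library size scaling, left the order of the group means of the 7 genes as it was, although with the longest transcript the untreated libraries of Rarres2 and Nampt overlapped.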

Other observations

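Some genes of the regulator and adiponectin assembly lists, chosen after their values were seen, differed between both agents and untreated cells. Atf3, a transcription factor of the stress response, was at 30.3 ± 1.51 CPM with both agents against 18.5 ± 3.32 CPM in untreated cells (SD, n = 2). The log2 difference was 0.71 (edgeR adjusted p = 5.76e-05). Hspa5, the chaperone of the endoplasmic reticulum, was higher by 0.26 (edgeR adjusted p = 0.00120), the only 1 of 14 assembly genes to pass, and Bhlhe40, named above for the single agents, by 0.45 (edgeR adjusted p = 1.29e-06). Rxra, the partner of PPARγ, was lower by 0.30 (edgeR adjusted p = 1.72e-04), and Klf15 by 0.26 (edgeR adjusted p = 0.00136). Of the 22 regulators, 3 rose and 2 fell in this comparison, where 3.79% of all genes tested rose and 3.71% fell. The genes named here were not run under the alternatives in this comparison. The libraries with both agents had the highest mitochondrial shares (11.4% and 11.8% against 10.49% to 10.98%). Of 8 adipocyte markers, 5 fell in the same comparison (median log2 fold change -0.19). The part of either in these values was not tested.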
